A study of Mus musculus with 6 samples.

Results

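The 10 basal and squamous keratins Krt4, Krt5, Krt6a, Krt6b, Krt10, Krt13, Krt14, Krt15, Krt16 and Krt17 were followed here, including those that stay absent. They were found by symbol among the 54418 genes of the deposited table, which holds 54 numbered keratin genes. Keratins are the intermediate filament proteins of epithelial cells, and each filament pairs a type I with a type II keratin. Simple epithelia such as the intestinal lining use Krt8, Krt18, Krt19 and Krt20, while stratified epithelia use other pairs. Krt5 with Krt14 or Krt15 marks the basal layer, Krt4 with Krt13 the upper layers of moist mucosa such as oesophagus, and Krt1 with Krt10 the upper layers of epidermis. Krt6a, Krt6b, Krt16 and Krt17 are made in wounded skin and in hair follicles.

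Poly(A) RNA came from mouse AKP organoids, epithelial cultures that grow as self-organised structures, in 3 GATA6KO and 3 Control libraries. The AKP background is shared by both groups, and the labels do not spell it out. The series title ties the loss of GATA6, a DNA-binding protein of the zinc-finger kind, to lineage plasticity and metastasis of colorectal cancer. The labels give neither the lesion in the gene nor the clone, nor whether replicates were separate cultures or which transplant round of the series the organoids come from. What the p-values reflect is then the scatter of these 6 libraries alone, and that scatter could be technical.

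Total estimated counts ran from 29208525 to 29674562 in GATA6KO and from 22973245 to 31328415 in Control. Gata6 itself measured 14.3, 16.0 and 8.24 CPM (counts per 1000000 counts, TMM-scaled) in GATA6KO replicates 1 to 3, against 25.3, 23.2 and 28.01 CPM in Control replicates 1 to 3. Its transcript fell by 0.99 on the log2 scale (edgeR adjusted p = 0.0486), a call that was lost without any of Control replicates 1, 2 and 3 (adjusted p = 0.149, 0.128 and 0.181). Leaving out those libraries also cut the calls over all genes, from 1823 to 425, 389 and 332. The 11 markers of intestinal epithelium summed to 7410 to 8725 CPM in GATA6KO and 11250 to 12311 CPM in Control. All 11 were tested, and Krt18, Krt8, Cdh17 and Cdh1 fell, 36.4% called beside 12.4% over all genes tested. The 9 markers of stratified squamous epithelium summed to 23.5 to 32.9 CPM in GATA6KO and 22.7 to 27.3 CPM in Control, with Krt1, Sprr3, Trp63 and Dsc3 at 5 counts or fewer in every library. Of the 4 tested, only Lor was called, rising from a mean of 2.81 CPM in Control to 12.1 CPM in GATA6KO. Dsg3, not called, averaged 20.8 CPM in Control and 13.8 CPM in GATA6KO. The similar sums thus cover moves in opposite directions. Leukocyte markers summed to 3.18 to 5.75 CPM in GATA6KO and 11.3 to 14.5 CPM in Control, mostly Cd68, while the defining gene Ptprc had at most 11 counts in any library. The part of these cells in the results below was not tested. Markers of fibroblasts summed to at most 0.700 CPM and those of endothelium to at most 0.667 CPM in any library. Genes of chromosomes 11 and 15, where the keratin clusters lie, had medians of 0.01, 0.03 and 0.01 and of -0.0012, -0.00024 and -0.06 in GATA6KO replicates 1 to 3 (log2 ratio to the Control mean). None of the 10 keratins lies on chromosome 14, whose 355 genes measured had medians of -0.09, -0.90 and 0.04, so that GATA6KO replicate 2 stood apart there. Of the 3 genes on it from the lists of stratified epithelium, named after their values were seen, Klf5 and Tgm1 were lowest in that library, at 233 and 46.2 CPM, and Anxa8 was not, at 117 CPM. Mitochondrial genes took 2.07%, 2.84% and 2.81% of counts in GATA6KO replicates 1 to 3 and 1.85% to 1.88% in Control.

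Of the 10 keratins, Krt15 and Krt13 rose in GATA6KO, Krt4 fell, and Krt6a, Krt16, Krt14 and Krt10 did not pass the test. Krt5, Krt6b and Krt17 had at most 3 counts in any library of either group and were not tested. The test was edgeR's quasi-likelihood test with Benjamini-Hochberg adjustment over the 14714 genes tested and a threshold of 0.05. Over all those genes it called 6.92% higher and 5.47% lower, 12.4% in all, while 3 of the 7 tested keratins (42.9%) were called. The median log2 fold change of the 7 was 0.64, beside 0.02 over all genes tested. The groups did not overlap for 4 of the 7 (Krt15, Krt13, Krt16 and Krt4), beside 40.8% of all genes tested. All 7 had at least 21 counts in every Control library, so Control alone carried each of them past the filter on low counts.

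**Figure D1:**
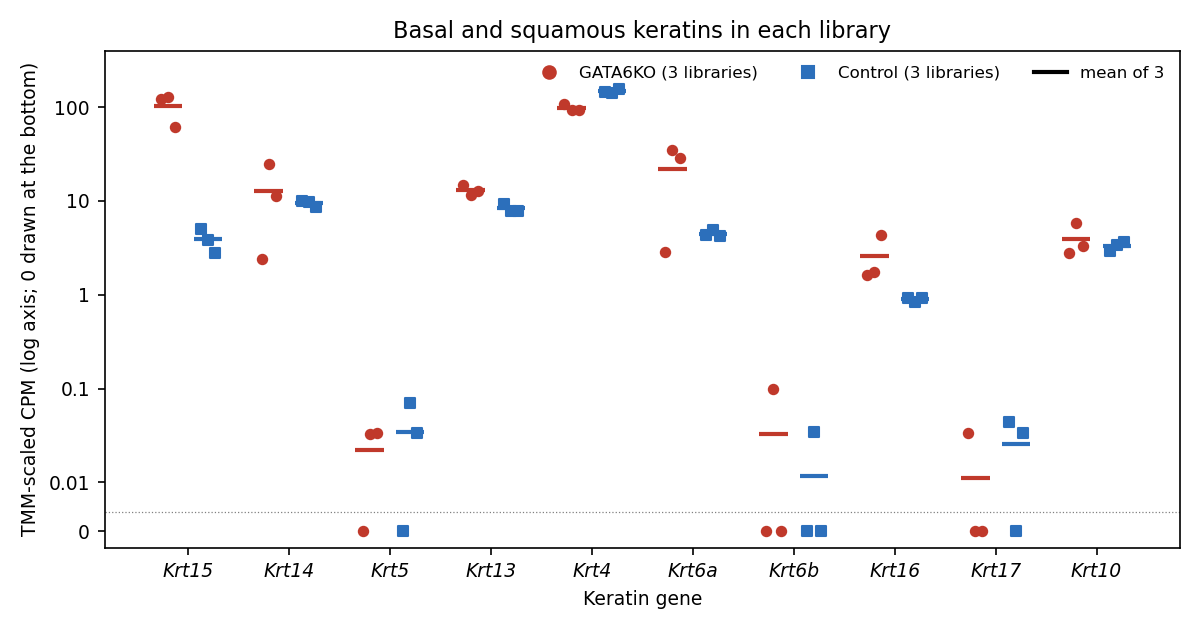
TMM-scaled CPM of each of the 10 keratins (log axis, 0 drawn at the bottom) in the 3 GATA6KO libraries (circles) and the 3 Control libraries (squares), with bars at the mean of 3. Krt15 sits between 60.8 and 128 CPM in GATA6KO and between 2.77 and 5.08 CPM in Control, while Krt5, Krt6b and Krt17 stay under 0.1 CPM in all 6.

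Krt15 had the highest fold change of the 7 tested. It is a type I keratin (ENSMUSG00000054146, mm10 chromosome 11, 100131758 to 100135928, minus strand), known from the basal layer and from the stem cells of the hair follicle bulge. It measured 122, 128 and 60.8 CPM in GATA6KO replicates 1 to 3, against 5.08, 3.81 and 2.77 CPM in Control replicates 1 to 3. The groups lay far apart, and GATA6KO replicate 3 was the lowest of the knockout libraries. Krt15 rose 26.8-fold, a log2 fold change of 4.74 (SE 0.38, 95% interval 3.85 to 5.64, edgeR adjusted p = 0.00183). An exact 2-sided permutation test of 3 against 3 values cannot go below p = 0.1, which any keratin without overlap reaches here. Krt15 was called under each of the 13 alternative analyses, with log2 fold changes from 4.53 to 5.02. Of its stretches of 31 bases, 3.74% also occur in a transcript of another gene, so little of it is open to division between copies. In these bulk libraries, more cells with Krt15 and more Krt15 RNA per cell cannot be told apart, and the same holds for every gene below.

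The partner of Krt15 in basal cells, the type II keratin Krt5, was close to absent. Krt5 (ENSMUSG00000061527, chromosome 15, 101707070 to 101712898) had 0, 1 and 1 counts in GATA6KO replicates 1 to 3, against 0, 2 and 1 counts in Control replicates 1 to 3. A count of 0 allows up to 3 counts, which is 0.0984 to 0.1003 CPM in a GATA6KO library and 0.10004 to 0.131 CPM in a Control library, for counting error only. Trp63, the transcription factor that defines the basal layer of stratified epithelium, had 1, 4 and 1 counts in GATA6KO and 0, 2 and 0 counts in Control. At this depth no difference of Krt5 or Trp63 between the groups was detectable.

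The other basal partner of Krt5, the type I keratin Krt14, was present in both groups. Krt14 (ENSMUSG00000045545, chromosome 11, 100203162 to 100207548) measured 2.41, 25.0 and 11.3 CPM in GATA6KO replicates 1 to 3, against 9.99, 9.64 and 8.60 CPM in Control replicates 1 to 3. The GATA6KO libraries fell on either side of the Control libraries, with replicate 1 below and replicates 2 and 3 above. Its log2 fold change was 0.46 (SE 0.69, 95% interval -1.19 to 2.11, edgeR adjusted p = 0.689), and it was 0.95 without GATA6KO replicate 1 and -0.45 without GATA6KO replicate 2. That interval holds both a fall and a rise of more than 2-fold.

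Krt14 and the wound keratin Krt16 are related in sequence, more closely at the start printed here than over the whole. The opening 60 coding bases follow (GENCODE M21 transcripts, both on the minus strand of chromosome 11, differences in capitals). Krt14 lies at chr11:100207396-100207455 and Krt16 at chr11:100248831-100248890.
Krt14: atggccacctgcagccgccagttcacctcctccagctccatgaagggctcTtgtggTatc
Krt16: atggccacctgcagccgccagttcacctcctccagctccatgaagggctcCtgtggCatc
They differ at 2 of these 60 bases, while their whole coding sequences are less alike, 86.2% identical over 1396 aligned bases. Of the 31-base stretches of Krt14, 17.6% also occur in Krt16, so that the split of reads between them rests on the authors' estimate. With the counts of Krt14, Krt16 and Krt17 added, the log2 fold change was 0.58 (edgeR adjusted p = 0.527).

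Krt4 and Krt13, the mucosal pair, moved in opposite directions. The type II keratin Krt4 (ENSMUSG00000059668, chromosome 15, 101918535 to 101924735) measured 108, 92.4 and 93.4 CPM in GATA6KO replicates 1 to 3, against 147, 142 and 156 CPM in Control replicates 1 to 3. Every GATA6KO library was below every Control library, and the spread within each group was small. Krt4 fell by 0.60 on the log2 scale (SE 0.10, 95% interval -0.83 to -0.37, edgeR adjusted p = 0.0127). Leaving out Control replicate 1, 2 or 3 ended the call at edgeR adjusted p of 0.0676, 0.0570 and 0.0736, while the log2 fold change stood at -0.60, -0.65 and -0.57. Calls over all genes fell too without a Control library, as given above for Gata6.

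The type I partner Krt13 (ENSMUSG00000044041, chromosome 11, 100117327 to 100121566) measured 14.7, 11.7 and 12.7 CPM in GATA6KO replicates 1 to 3, against 9.33, 7.90 and 7.80 CPM in Control replicates 1 to 3. The groups did not overlap, but the gap between the lowest GATA6KO and the highest Control library was smaller than the range within GATA6KO. Krt13 rose by a log2 fold change of 0.64 (SE 0.16, 95% interval 0.26 to 1.02, edgeR adjusted p = 0.0468). It was not called without GATA6KO replicate 3 (adjusted p = 0.0692), without Control replicate 1, 2 or 3 (0.114, 0.192 and 0.203), or with no filter on low counts (0.0716). Per kilobase of transcript, Krt4 stood at 5.69, 6.14 and 5.70 times Krt13 in GATA6KO replicates 1 to 3, against 12.2, 13.97 and 15.5 times in Control replicates 1 to 3.

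**Figure D2:**
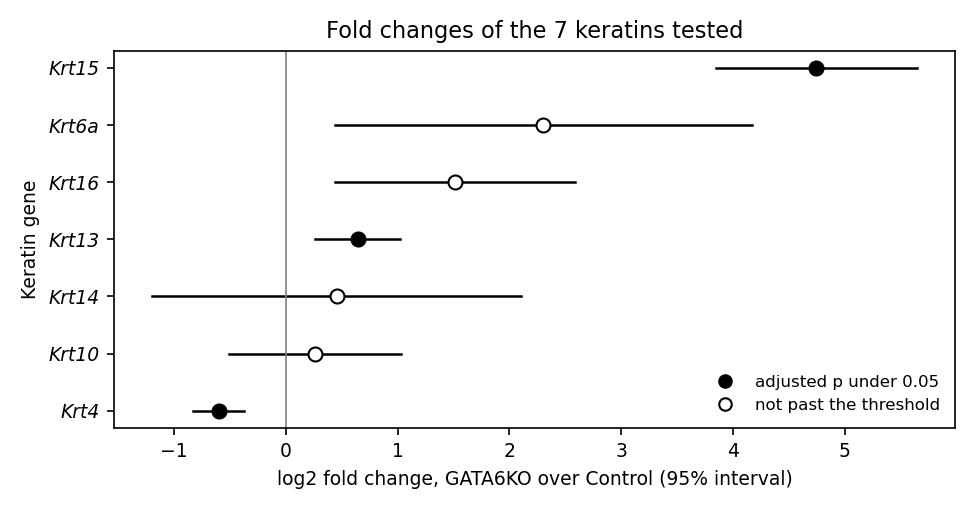
log2 fold change of GATA6KO over Control with its 95% interval for the 7 keratins tested (edgeR). Filled points passed the adjusted threshold, and the intervals of Krt14 and Krt10 include 0.

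Krt6a and Krt16, keratins that skin makes after wounding, were higher in most GATA6KO libraries but did not pass the test. The type II keratin Krt6a (ENSMUSG00000058354, chromosome 15, 101689910 to 101694307) measured 2.88, 34.9 and 28.4 CPM in GATA6KO replicates 1 to 3, against 4.29, 4.89 and 4.202 CPM in Control replicates 1 to 3. GATA6KO replicates 2 and 3 stood at 7.83 and 6.36 times the Control mean and replicate 1 at 0.645 times. Replicates 2 and 3 are also the libraries with the higher mitochondrial share, 2.84% and 2.81% against 2.07% in replicate 1, and its part in the result was not tested. The log2 fold change was 2.30 (SE 0.78, 95% interval 0.44 to 4.17, edgeR adjusted p = 0.101). Without GATA6KO replicate 1 Krt6a was called (log2 fold change 2.83, adjusted p = 0.00152), and DESeq2 on all libraries called it too (adjusted p = 0.00602). Over all genes these 2 settings called 4360 and 3238, beside 1823 in the main fit. With limma-voom the log2 fold change was 1.67 (adjusted p = 0.343), and without GATA6KO replicate 2 it was 1.81 (edgeR adjusted p = 0.184). Without GATA6KO replicate 3 or 1 of the Control libraries Krt6a was not called either, at edgeR adjusted p of 0.194 to 0.289.

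Krt6b, the neighbouring copy of Krt6a, had 0, 3 and 0 counts in GATA6KO replicates 1 to 3 and 0, 1 and 0 counts in Control. The opening 60 coding bases of the 2 genes show where reads could tell them apart (GENCODE M21, minus strand of chromosome 15, differences in capitals). Krt6a lies at chr15:101694189-101694248 and Krt6b at chr15:101680164-101680223.
Krt6a: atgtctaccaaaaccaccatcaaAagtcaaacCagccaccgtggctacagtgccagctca
Krt6b: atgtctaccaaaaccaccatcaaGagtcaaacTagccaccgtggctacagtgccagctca
Their coding sequences are 97.8% identical, and 45.9% of the 31-base stretches of Krt6a also occur in Krt6b. With the counts of both genes added the log2 fold change was 2.30 (edgeR adjusted p = 0.101).

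Krt16 (ENSMUSG00000053797, chromosome 11, 100246091 to 100248902) measured 1.605, 1.74 and 4.34 CPM in GATA6KO replicates 1 to 3, against 0.920, 0.832 and 0.934 CPM in Control replicates 1 to 3. All GATA6KO libraries were above all Control libraries, and replicate 3 stood apart at 4.84 times the Control mean. The log2 fold change was 1.51 (SE 0.45, 95% interval 0.44 to 2.58, edgeR adjusted p = 0.0731). Of the 31-base stretches of Krt16, 51.9% occur in another gene's transcripts, and 32.2% in Gm11597, which had 0 counts in every library. Krt16 was called without GATA6KO replicate 1 (log2 fold change 1.76, adjusted p = 0.0330) and by DESeq2 (adjusted p = 0.0268), settings that called more of all genes as well. Without GATA6KO replicate 3 the log2 fold change was 0.90 (edgeR adjusted p = 0.0915), and without Control replicate 1, 2 or 3 the adjusted p was 0.204, 0.230 and 0.235. The highest GATA6KO library differed between genes: it was replicate 2 for Krt6a, Krt14 and Krt10 and replicate 3 for Krt16. Krt17, a keratin of skin appendages and wounds that lies 7.31 kb from Krt16, had 1, 0 and 0 counts in GATA6KO and 1, 0 and 1 counts in Control.

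Krt10, the type I keratin of upper epidermal layers (ENSMUSG00000019761, chromosome 11, 99385254 to 99389364), measured 2.78, 5.80 and 3.34 CPM in GATA6KO replicates 1 to 3. It measured 2.94, 3.36 and 3.63 CPM in Control replicates 1 to 3. The groups overlapped, with 1 GATA6KO library below and 1 above the Control range. The log2 fold change was 0.26 (SE 0.32, 95% interval -0.51 to 1.03, edgeR adjusted p = 0.621), and it was -0.12 without GATA6KO replicate 2. Its epidermal partner Krt1 had 0 counts in each GATA6KO library and 0, 0 and 1 counts in Control.

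Set against each other per kilobase of transcript, Krt15 averaged 60.9 ± 21.9 CPM per kb in GATA6KO, followed by Krt4 at 45.9 ± 4.02 (SD, n = 3 each). Their libraries overlapped, at 71.7, 75.4 and 35.7 CPM per kb for Krt15 and 50.5, 43.3 and 43.8 CPM per kb for Krt4. Krt6a, Krt13 and Krt14 followed at 9.68 ± 7.43, 7.87 ± 0.923 and 7.60 ± 6.70 CPM per kb, with overlapping libraries. Krt10 and Krt16 came last at 1.90 ± 0.769 and 1.64 ± 0.984 CPM per kb and overlapped too, as did Krt14 with Krt10. In Control the order was Krt4 at 69.6 ± 3.33, Krt14 at 5.54 ± 0.424, Krt13 at 5.05 ± 0.517, Krt15 at 2.29 ± 0.682, Krt6a at 1.96 ± 0.163, Krt10 at 1.58 ± 0.168 and Krt16 at 0.572 ± 0.0353 CPM per kb. Of neighbours in that order, only Krt14 with Krt13 and Krt15 with Krt6a had overlapping Control libraries. Krt5, Krt6b and Krt17 lay below all of these in both groups.

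The make-up of the group differed between GATA6KO and Control. The 10 keratins summed to 254, 300 and 214 CPM in GATA6KO replicates 1 to 3, against 179, 173 and 184 CPM in Control replicates 1 to 3. Without Krt4 and Krt15 the sums were 24.4, 79.2 and 60.1 CPM in GATA6KO, against 27.5, 26.7 and 25.2 CPM in Control. GATA6KO replicate 1 was then below every Control library, and replicates 2 and 3 were above them all. Krt15 took 39.7 ± 10.2% of the counts of the group in GATA6KO and 2.18 ± 0.667% in Control (SD, n = 3 each). Krt4 took 38.9 ± 7.06% in GATA6KO and 83.0 ± 1.59% in Control (SD, n = 3 each).

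**Figure D3:**
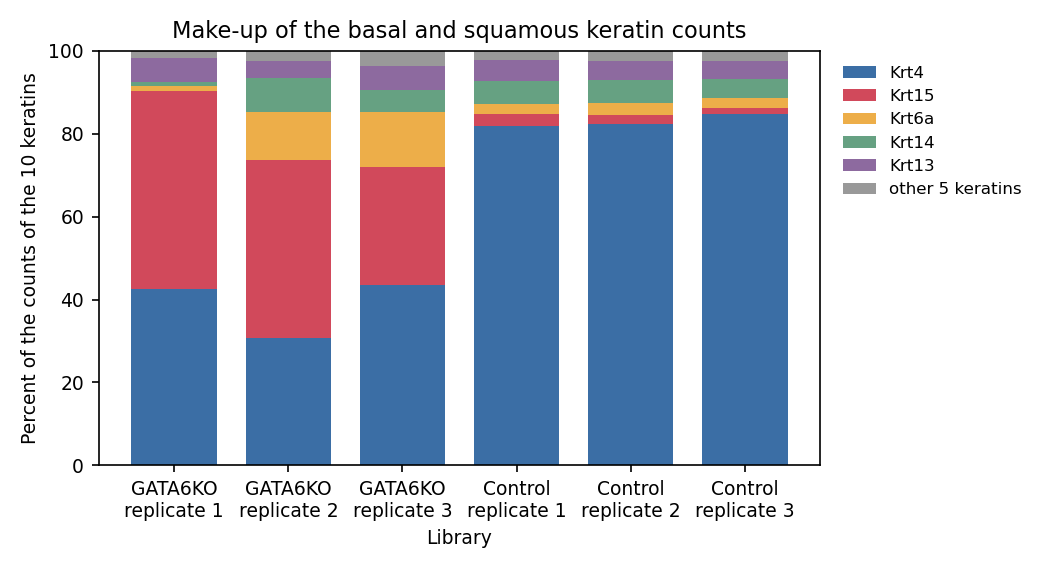
Percent of the summed counts of the 10 keratins that each gene takes, as stacked bars from 0 to 100 for the 3 GATA6KO and the 3 Control libraries. Krt4 fills 30.8% to 43.6% of the GATA6KO bars and 81.8% to 84.8% of the Control bars, while Krt15 fills 28.4% to 48.0% of the GATA6KO bars and at most 2.84% of the Control bars.

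The balance of types within the group differed as well. Type I members (Krt10, Krt13, Krt14, Krt15, Krt16 and Krt17) summed to 84.3, 101 and 54.5 CPM per kb in GATA6KO replicates 1 to 3, against 16.5, 14.8 and 13.8 CPM per kb in Control. Krt15 alone made up 71.7, 75.4 and 35.7 of these CPM per kb in GATA6KO, against 2.99, 2.24 and 1.63 in Control. The type I difference is therefore largely that of Krt15 again. Type II members (Krt4, Krt5, Krt6a and Krt6b) summed to 51.8, 58.7 and 56.3 CPM per kb in GATA6KO, against 70.6, 68.9 and 75.1 CPM per kb in Control. The ratio of type I to type II in the group was 1.44 ± 0.411 in GATA6KO and 0.211 ± 0.0257 in Control (SD, n = 3 each). Over all 54 numbered keratins the same ratio was 1.39 ± 0.0513 in GATA6KO and 1.48 ± 0.0394 in Control (SD, n = 3 each). The 10 keratins were a small part of all keratin RNA, at 2.94 ± 0.586% of numbered keratin counts in GATA6KO and 1.89 ± 0.0840% in Control (SD, n = 3 each). These sums were chosen with earlier results known and carry no test.

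Simple epithelial keratins remained the bulk, with a summed 6231 to 6977 CPM in GATA6KO and 8658 to 9715 CPM in Control. Of the 6 tested (Krt7, Krt8, Krt18, Krt19, Krt20 and Krt23), Krt8 and Krt18 fell and 0 rose. That is 33.3% called, beside 12.4% over all genes tested.

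On the chromosome, Krt15 and Krt13 sit at the edge of the block of hair keratins. Krt13 lies 11.7 kb from the hair keratin Krt36 (log2 fold change 4.04, edgeR adjusted p = 0.000759) and 10.2 kb from Krt15. On its other side Krt15 lies 4.88 kb from Krt19, a simple epithelial keratin (log2 fold change -0.38, edgeR adjusted p = 0.0861). The fold changes of these 4 neighbours in order, Krt36, Krt13, Krt15 and Krt19, were 4.04, 0.64, 4.74 and -0.38 on the log2 scale. Krt14 and Krt16, 38.5 kb apart, are separated from that block by Krt19 and Krt9. In the other cluster Krt6a has the near-absent Krt6b 9.62 kb away on one side and Krt5 12.8 kb away on the other. Krt4 lies 4.60 kb from Krt79 (log2 fold change 0.93, edgeR adjusted p = 0.420).

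**Figure D4:**
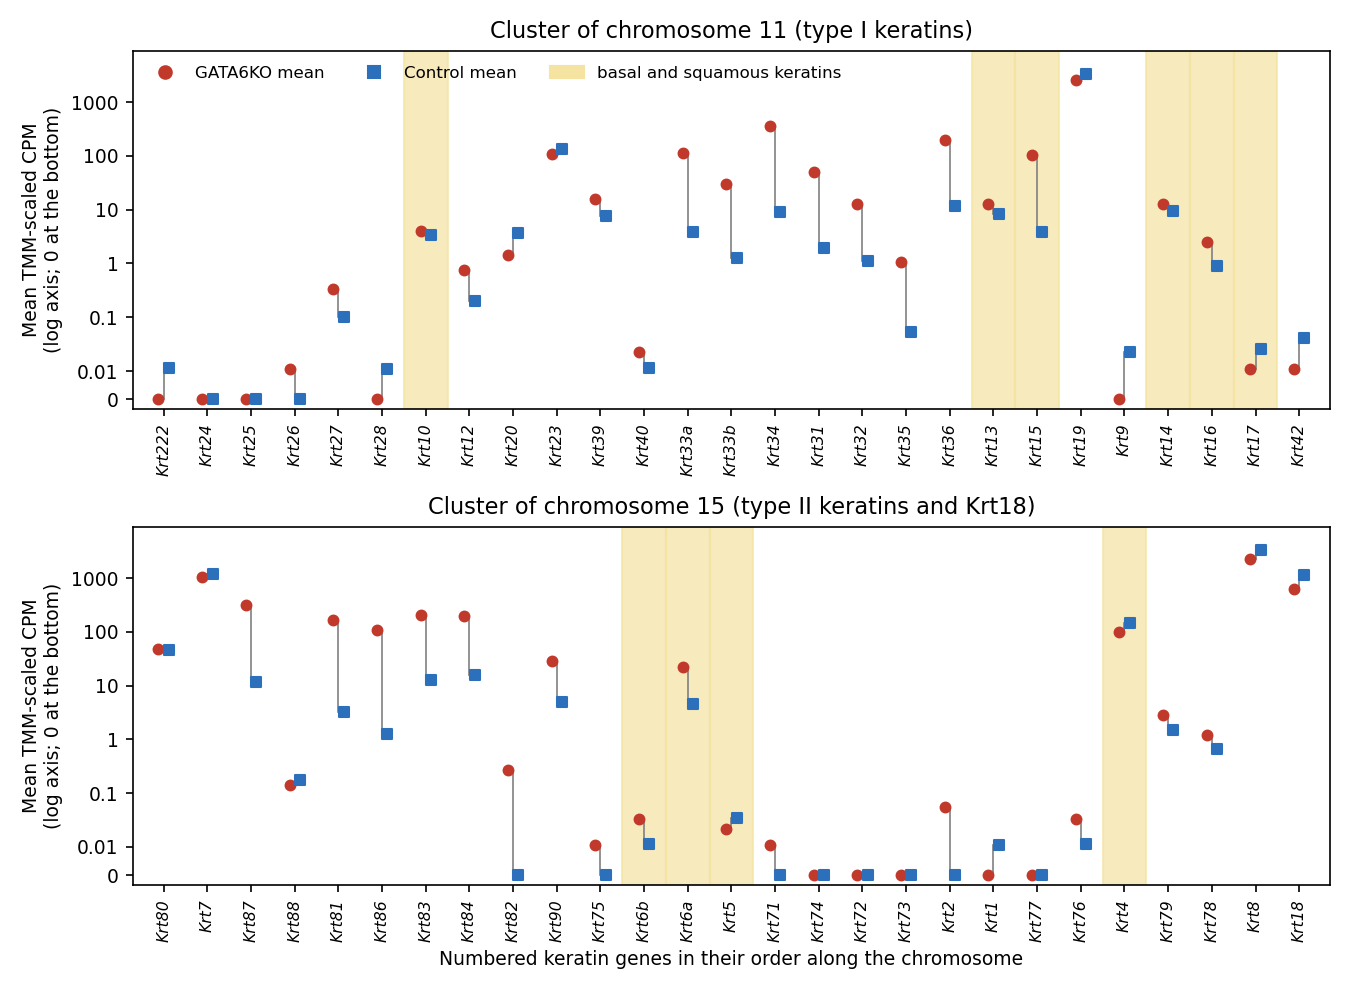
Mean TMM-scaled CPM (log axis, 0 drawn at the bottom) of every numbered keratin gene, in order along chromosome 11 and chromosome 15, for GATA6KO (circles) and Control (squares), with shading on the 10 basal and squamous keratins. Krt15, with 104 CPM in GATA6KO and 3.89 CPM in Control, lies 2 genes from Krt36, while Krt13 between them has 13.0 CPM in GATA6KO and 8.35 CPM in Control.

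Of the listed hair keratins, all 6 tested of type I and all 5 tested of type II rose, with median log2 fold changes of 4.65 and 4.74. That is 100% of each list tested, beside 6.92% called higher over all genes tested. Of the 7 listed genes of type II, 6 were found by symbol. Krt39, a type I hair keratin outside the list, rose by only 1.03 (edgeR adjusted p = 0.0304). Its call was not checked with libraries left out. No keratin of the inner root sheath or companion layer reached the test, and 8 of the 9 had at most 5 counts in any library. The genes whose profile over the 6 libraries was most like that of Krt15 were Gprc5d, an orphan receptor, the hair keratin Krt33a and Cd40lg, a ligand of the tumour necrosis factor family. Likeness was the root mean square difference of centred log2 CPM, which was 0.24, 0.24 and 0.25 for these genes, where Krt15 itself deviated by 2.38 from its mean. Irx4, a homeobox factor, was nearest to Krt6a at 0.29, and Col7a1, the collagen of anchoring fibrils, nearest to Krt14 at 0.15. Krt16 was nearest to the protease Ctse at 0.16 and to Tgm5, an epidermal transglutaminase, at 0.16. Krt6a, Krt14 and Krt16 themselves deviated by 1.42, 0.98 and 0.79 from their means. Some of these near genes were low, with Ctse at means of 0.942 CPM in GATA6KO and 0.314 CPM in Control, and Col7a1 at 0.835 and 0.660 CPM. Krt4 and Krt13 had Spire2 and Rfx2 nearest, at 0.03 and 0.05, and Krt10 had Tspan17, at 0.07. Krt4, Krt13 and Krt10 themselves deviated by 0.31, 0.34 and 0.34.

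RefSeq's promoter table (GRCm38.p6) holds 4 of the 10 keratins. The 250 bases before the start are shown for Krt13, which rose, and for Krt5, which stayed near 0. Matches to TGANTCA, a loose form of the AP-1 motif in which N is any base, are in capitals. Krt13 is at chr11:100121567-100121816 and Krt5 at chr15:101712906-101713155, both on the minus strand and written 5′ to 3′.
Krt13: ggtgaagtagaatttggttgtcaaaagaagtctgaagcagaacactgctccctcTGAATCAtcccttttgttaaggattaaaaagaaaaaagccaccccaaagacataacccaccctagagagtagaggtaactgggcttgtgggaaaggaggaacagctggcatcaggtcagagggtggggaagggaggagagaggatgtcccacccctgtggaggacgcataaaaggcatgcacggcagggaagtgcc
Krt5: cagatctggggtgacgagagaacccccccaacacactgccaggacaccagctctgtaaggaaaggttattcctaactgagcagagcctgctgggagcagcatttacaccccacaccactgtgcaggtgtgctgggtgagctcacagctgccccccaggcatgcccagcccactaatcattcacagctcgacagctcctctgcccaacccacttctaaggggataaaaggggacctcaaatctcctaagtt
Krt13 has 1 match to TGANTCA, with the letters TGAATCA, at -196 to -190 from its start, and Krt5 has none. A match to TGANTCA, with any base at N, occurs in 6.75% of all 32851 windows of 250 bases in that table. For a GATA site the letters AGATAA and AGATAG were searched on both strands, and so were TGATAA and TGATAG. Neither window holds any of them, and 26.5% of all windows do. Neither holds TATAAA, which 12.4% of all windows hold. A further start of Krt13 in that table, not printed, has TGACTCA at -183 to -177 and at -34 to -28. In Krt10 AGATAA lies at -126 to -121 and TATAAA at -26 to -21, and at a start inside Krt14 TGATAA lies at -42 to -37. A match is a string of letters and not a bound site.

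Other genes of stratified epithelium moved in both directions. Over all genes tested, 6.92% were called higher and 5.47% lower, 12.4% in all. The lists are small, so 1 gene more or less changes the share called a good deal. Of 12 suprabasal and cornified envelope genes tested, of 23 in the list, 4 rose and 0 fell, 33.3% of those tested. Their median log2 fold change was 0.54, beside 0.02 over all genes. Tgm3, a transglutaminase of hair and upper epidermis, rose by 3.09 on the log2 scale (edgeR adjusted p = 0.0194) and Rptn, a cornified envelope matrix protein, by 2.41 (adjusted p = 0.0113). Lor, the main protein of the cornified envelope, measured 13.4, 11.05 and 11.8 CPM in GATA6KO replicates 1 to 3, against 2.72, 2.98 and 2.73 CPM in Control (log2 fold change 2.10, edgeR adjusted p = 0.00194). Cnfn rose by 1.98 (adjusted p = 0.0181). Of the 23, Krtdap, Sprr3 and Krt77 were at 0 in every library, and 10 in all had at most 5 counts.

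Of 10 basal layer adhesion genes tested, 0 rose and 3 fell, with a median of -0.31. That is 30% of those tested, beside 12.4% called over all genes. Dst, which anchors keratin filaments to hemidesmosomes, fell by 1.70 on the log2 scale (edgeR adjusted p = 0.0206), the laminin chain Lamb3 by 0.79 (adjusted p = 0.0234) and the integrin Itga6 by 0.46 (adjusted p = 0.0353). Col17a1, the hemidesmosomal collagen of basal cells, had at most 8 counts in any library. Of 9 listed desmosome genes tested, with a median of -0.45, 0 rose and 2 fell, 22.2% beside the 12.4% over all genes. The cadherin Dsg2 fell by 0.47 (edgeR adjusted p = 0.0288) and Perp by 0.47 (adjusted p = 0.0258). Dsg4, a desmosomal cadherin outside the list, went the other way, from a mean of 2.89 CPM in Control to 42.6 CPM in GATA6KO. It rose by 3.89 on the log2 scale (edgeR adjusted p = 0.00305), a call that was not checked with libraries left out.

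Of 10 tested regulators of stratified epithelium, 1 rose and 0 fell, with a median of 0.11. That is 10% of those tested, no more than the 12.4% called over all genes, and so no result about these regulators. Grhl1, a grainyhead factor that activates desmosomal genes in skin, measured 34.8 CPM in GATA6KO and 15.1 CPM in Control (log2 fold change 1.202, edgeR adjusted p = 0.00424). Trp63, Trp73, Tfap2c, Sox15 and Pitx1 had at most 5 counts in any library. Of 9 tested surface and secreted genes of squamous cells, 3 rose and 1 fell (44.4% called), with a median of 0.88. Ly6g6c rose by 2.85 (adjusted p = 0.00134), Dmkn by 2.60 (adjusted p = 0.0135) and Ly6d by 1.79 (adjusted p = 0.00893), while Sfn fell by 0.42 (adjusted p = 0.0459).

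Of 6 tested wound and hyperproliferation genes, which skin switches on together with Krt6a and Krt16, 0 rose and 3 fell, with a median of -1.43. That is 50% of those tested, beside 12.4% called over all genes. The epidermal growth factor family ligands Areg and Hbegf fell by 2.21 (edgeR adjusted p = 0.0345) and 0.92 (adjusted p = 0.0124), and the interleukin antagonist Il1rn fell by 1.04 (adjusted p = 0.0161). The other 3 tested genes did not pass, with log2 fold changes of both signs.

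Of the genes of these 6 lists given as changed, only Lor, Grhl1 and Ly6g6c kept their call whichever library was left out. The others, with Krt8, Krt18, Cdh17, Cdh1 and the hair keratin Krt32, were not called when Control replicate 1, 2 or 3 was left out, at edgeR adjusted p of up to 0.160 (Sfn). Exceptions were Ly6d, still called without Control replicate 3, and Krt18 and Cdh17, still called without Control replicate 1. Sfn was also not called without GATA6KO replicate 2 or 3 (0.0713 and 0.0756), Areg without GATA6KO replicate 2 (0.0603) and Itga6 without GATA6KO replicate 3 (0.0659). Over all genes, 1823 were called with every library and 425, 389 and 332 without Control replicate 1, 2 and 3.

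**Figure D5:**
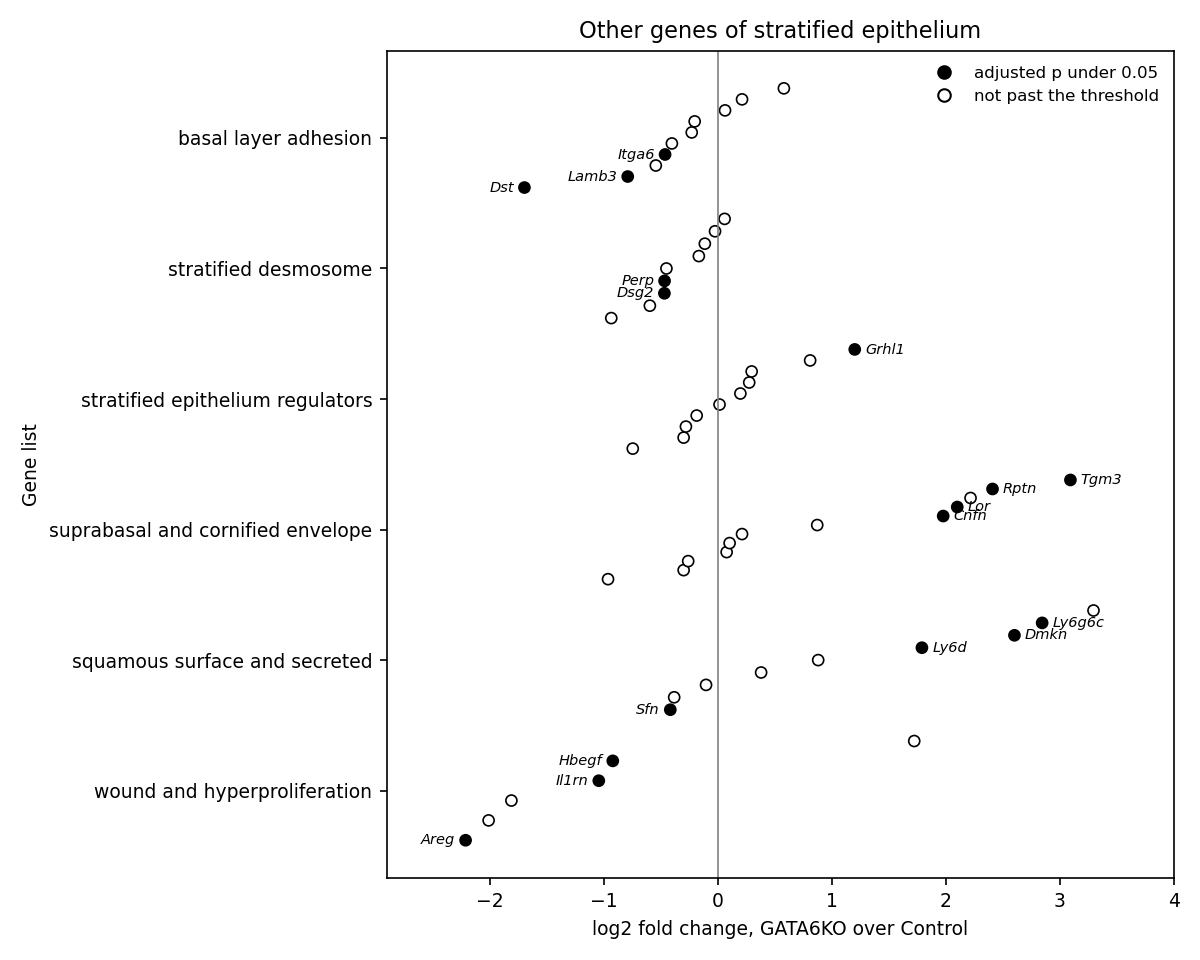
log2 fold change of GATA6KO over Control for each tested gene of 6 lists of stratified epithelium genes, 1 point a gene, filled and named where the edgeR adjusted p was under 0.05. The named cornified envelope genes lie between 1.98 and 3.09, and the named basal adhesion, desmosome and wound genes lie between -2.21 and -0.46.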

How the data were processed

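The authors deposited 1 table of estimated counts per gene for the 6 libraries, without normalization. Per the submitters' processing notes, Salmon 1.3.0 and mm10 were used, and per the labels' protocols the libraries were poly(A)-selected and directional. Options of the quantification and its transcript set: not given in the sources used here. Symbols and positions came from GENCODE M21, which named 54166 of the 54418 gene IDs, and 252 had no name.

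Counts were rounded to whole numbers and filtered with filterByExpr (minimum count 10, total 15), which left 14714 genes. GATA6KO was compared with Control by TMM scaling and the quasi-likelihood test of edgeR 4.0.16 (R 4.3.3), with Benjamini-Hochberg adjustment over all 14714 genes and a threshold of 0.05. The biological coefficient of variation was 0.245. CPM are per 1000000 counts, and CPM per kb divide by the longest protein-coding transcript. Intervals cover 95%. The scripts were tested on simulated data with less scatter than these libraries, which does not show how the fit behaves at the scatter seen here. Intervals and limits from a count of 0 cover counting error only.

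The keratins and the gene lists were chosen with earlier results of these data known, so no list has a test of its own and the lists are described by counts and medians. The genes named for likeness to a keratin came from the 3 nearest by root mean square difference of centred log2 CPM (prior count 2). Of each list, up to 4 called genes of at least 1 CPM in a group were named by the size of the fold change. Genes at or near 0 were named to show their absence, and Klf5, Tgm1, Anxa8 and Dsg4 after their values were seen. Shared 31-base stretches were counted over all GENCODE M21 transcripts, and coding sequences were aligned with Biopython 1.88. Alternatives were RLE scaling, scaling by total counts, DESeq2 1.42.0, limma-voom (limma 3.58.1), no filter, a stricter filter, a replicate block, and leaving out each library.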

Additional observations from a re-analysis of the deposited data

How the results depend on the processing

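Krt15 was called higher under each of its 13 alternatives, with adjusted p of at most 0.0175. Genes called numbered 1823 in all and 3238 with DESeq2. Without GATA6KO replicate 1, 2 and 3 they numbered 4360, 2344 and 1834, and without Control replicate 1, 2 and 3 they numbered 425, 389 and 332. A call gained or lost under these settings thus went with a shift in the number called over all genes. The 10 keratins had 2 called higher, 4 with DESeq2, 1 with no filter on low counts, and 1 to 4 when 1 library was left out, and 1 called lower, 0 to 1 when 1 library was left out. The extra keratins with DESeq2 were Krt6a and Krt16. The log2 fold change of Krt14, not called, was -0.080 with limma-voom and -0.45 to 0.95 when 1 library was left out, and that of Krt10, not called, was -0.12 to 0.46 when 1 library was left out. The 10 keratins took 1.69% of numbered keratin signal in Control by CPM per kb, beside 1.89% by counts. RLE scaling, total-count scaling and the stricter filter left the number of keratins called higher and lower as it was. The cause of each difference was not tested.

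A fit with the replicate number as a replicate block called 827 genes and 1 keratin higher (Krt15), with Krt13 at 0.64 (edgeR adjusted p = 0.107) and Krt14 at -0.0077. Deviations of same-numbered libraries correlated at -0.01, 0.07 and -0.09 over 14714 genes. These low values show no pairing by number, but 3 libraries in a group are too few to exclude one. Of the GATA6KO libraries, only replicate 2 correlated best with its own number.

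Depth limits Krt5, Krt6b and Krt17, where at most 3 counts leave no difference detectable. The spread between GATA6KO libraries limits Krt6a, Krt14 and Krt16.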
